A study of Sus scrofa with 24 samples.

Results

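The mitochondrial carrier family, SLC25, moves metabolites, nucleotides, phosphate and cofactors across the inner mitochondrial membrane. Here it was taken as every row of the deposited expression table whose gene symbol begins with SLC25A, together with the uncoupling proteins UCP2 and UCP3. The rule gave 35 genes with 69 listed transcripts, out of 12017 genes and 22154 transcripts in the table. The rule used symbols alone and no expression value.

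PolyA RNA from the back muscle longissimus dorsi of 24 pigs was sequenced. All were F1 crosses of Duroc boars with Luchuan sows, from a population of 265 pigs (8 boars, 112 sows) kept on a common diet and killed at an age of 210 ± 6 days. According to the labels, 12 pigs had a high and 12 a low content of intramuscular fat (IMF), which lies between and within the fibres. Each library is 1 animal, numbered within its group in accession order. Measured fat contents are not used here, and sex is not stated in the labels used. Muscle is a mixture of fibres, fat cells, vessels and blood. In such bulk samples, fewer cells of a type and less RNA per cell cannot be told apart.

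The inner mitochondrial membrane is closed to charged molecules, so every substrate that enters or leaves the matrix needs a protein to carry it. ADP/ATP carriers export the ATP made by oxidative phosphorylation, and the phosphate carrier supplies the phosphate from which it is made. Other members shuttle reducing equivalents, bring in fatty acids as acylcarnitines, feed citrate to fat synthesis or let protons leak back. Muscle fibres are rich in mitochondria and depend on the first of these groups during contraction. Fat cells depend on citrate export when they make fatty acids.

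Values are FPKM, that is, fragments per kilobase scaled to the size of the library, summed over the listed transcripts of a symbol. FPKM is scaled by length, so levels can be set side by side between genes. RefSeq lists 48 genes of the family by symbol on the pig assembly Sscrofa11.1, and 34 of them are in the table under the same symbol. The other 14, among them SLC25A10, SLC25A37, SLC25A42 and UCP1, are not analysed here. The gene that the table names SLC25A52 has no RefSeq gene of that symbol, and its 3 assembled transcripts, at chromosome 1, 238638051 to 238667632, overlap SLC25A51 in RefSeq. It is called SLC25A52 below, as in the table. By position, 15 of the 35 members overlap a RefSeq gene of another symbol, so their values may hold reads of it. They are SLC25A1, SLC25A11, SLC25A12, SLC25A24, SLC25A26, SLC25A32, SLC25A34, SLC25A38, SLC25A39, SLC25A40, SLC25A43, SLC25A44, SLC25A47, SLC25A52 and UCP2.

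The family was dominated by 3 genes. SLC25A4, SLC25A3 and SLC25A6 had means over 100 FPKM and together made up 80.6% of the family's summed FPKM on average, from 71.0% to 84.8% per animal. Of the other members, 5 had a mean from 10 to 100 FPKM, 22 from 1 to 10 FPKM and 5 under 1 FPKM. In all, 33 of the 35 were above 0 in every animal, and SLC25A22 and SLC25A27 were each at 0 in 1 animal. Every transcript in the table was above 0 in at least 19 of the 24 animals, so members seen in fewer animals are not among those listed.

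**Figure D1:**
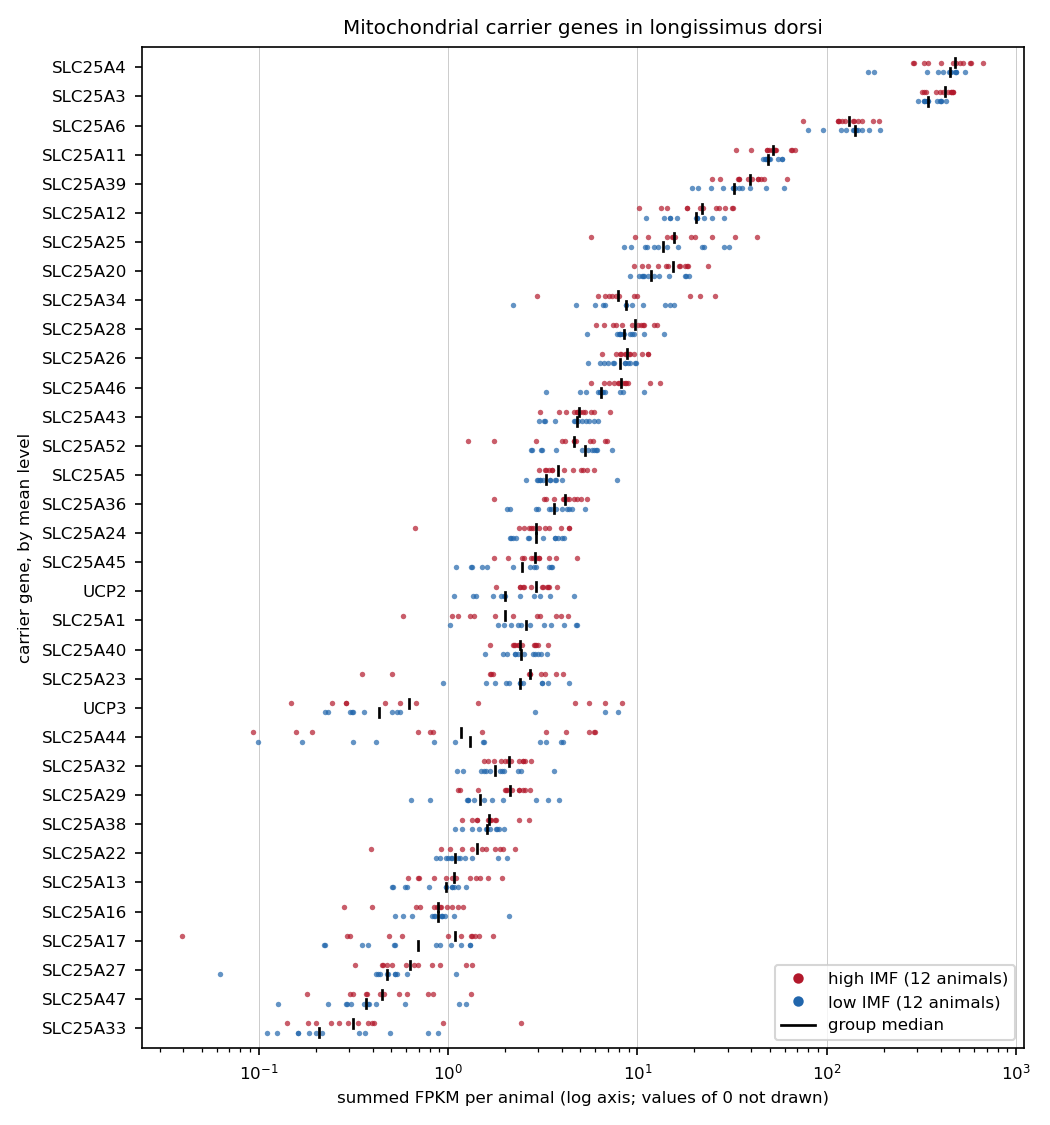
Summed FPKM of 34 of the 35 carrier genes on a log axis, 1 point per animal, with high IMF animals in red, low IMF animals in blue and group medians as black ticks. SLC25A4, SLC25A3 and SLC25A6 stand above 70 FPKM in every animal, and the 2 colours overlap in every gene drawn.

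The order of levels was firmest at its top. SLC25A3 exceeded SLC25A6 and SLC25A6 exceeded SLC25A11 in 24 of 24 animals each, and SLC25A39 exceeded SLC25A12 in 23. SLC25A4 exceeded SLC25A3 in 18 animals. Further down, neighbours changed places: SLC25A12 exceeded SLC25A25 in 14 animals, SLC25A34 exceeded SLC25A28 in 12, and SLC25A43 exceeded SLC25A52 in 12. Of the lower members, only SLC25A46 kept its place over the next gene, SLC25A43, in as many as 23 animals.

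No carrier differed between high and low IMF muscle past the adjusted threshold. Differences were tested with limma on log2(FPKM + 1), fitted over the 11757 genes whose mean reached 0.5 FPKM, with Benjamini-Hochberg adjustment over all of them. Of 35 members, 34 passed this filter and SLC25A33 (mean 0.426 FPKM) did not. At an adjusted p under 0.05, 0 of the 34 were called, and the background is 0.051% of all genes tested. At an unadjusted p under 0.05, 2 were higher in high IMF, SLC25A46 and SLC25A3, against a background of 6.79%, and 0 were lower, against 0.893%. The 2 members are 5.88% of 34, against 7.68% of all genes in either direction, and so lie near the background. In none of the 34 were the groups free of overlap, and the share of all genes tested with such groups was 0%.

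The log2 fold change was positive for 28 of 34 members (82.4%), against 73.4% of all genes tested, with a median of 0.15 against 0.077. The share depends on how the libraries are scaled. With the trimmed mean of M values (TMM), a scaling that takes the typical gene as unchanged, 22 of 34 were positive against 49.9% of all genes. The family median was then 0.067, against -0.00032 for all genes. Upper-quartile scaling also gave 22 positive members, against 48.1% of all genes. With either scaling 0 members passed the adjusted threshold, against 0.0512% of all genes with TMM and 0.0426% with upper-quartile scaling. At an unadjusted p under 0.05, 1 member, SLC25A46, was higher and 0 were lower with either. The background was 2.82% higher and 2.28% lower (5.11% in all) with TMM, and 2.58% higher and 2.45% lower (5.04% in all) with upper-quartile scaling. The members that turned negative with TMM scaling were SLC25A11, SLC25A22, SLC25A28, SLC25A38, SLC25A40 and SLC25A43.

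The intervals show how large a difference these animals could hide. The 95% interval of the log2 fold change lay between -1 and 1 for 33 of 34 members and between -0.5 and 0.5 for 21. The exception to the first was UCP3. These intervals hold for each gene alone and for the scaling as deposited. Adding 1 to the FPKM shrinks the change of low members, so for them the intervals do not bound the ratio of FPKM. SLC25A27, for one, had a ratio of means of 1.51, high over low IMF, and an interval from -0.0022 to 0.44.

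**Figure D2:**
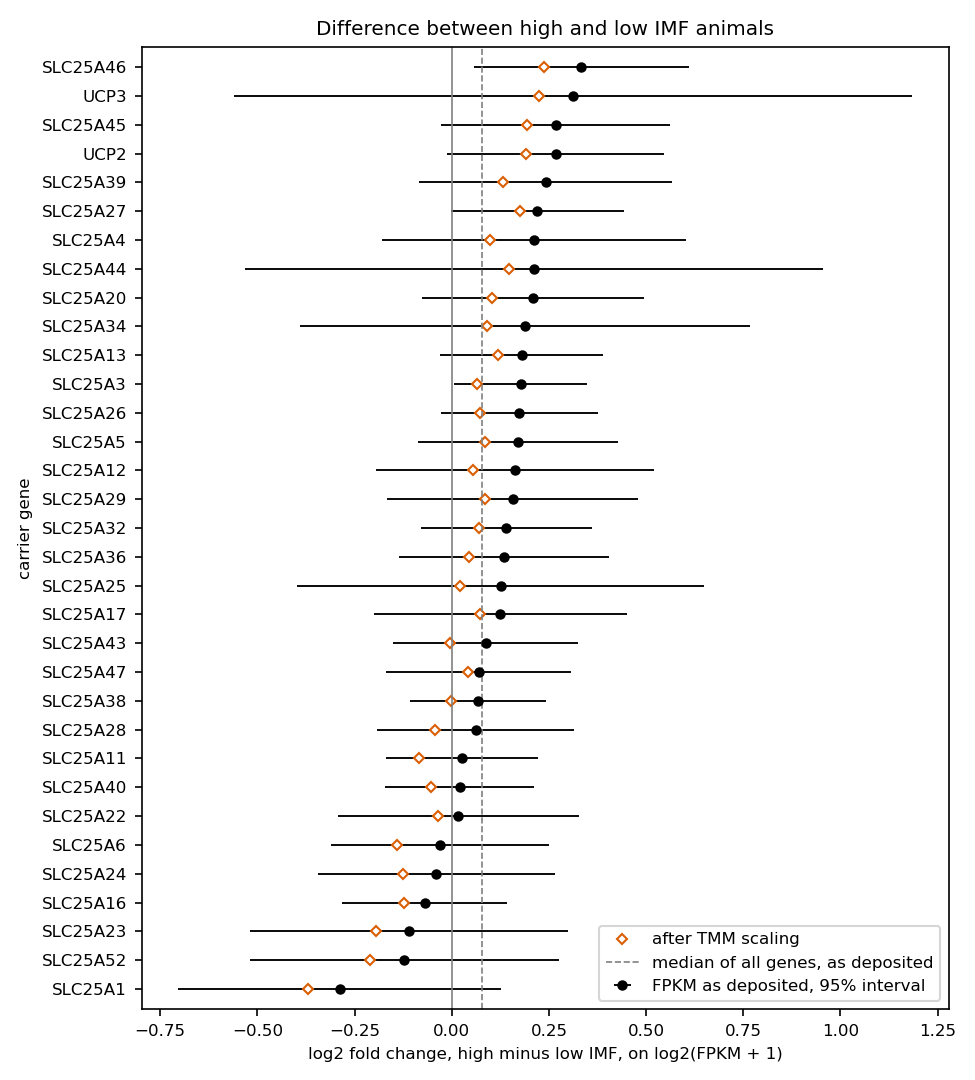
Log2 fold change on log2(FPKM + 1), high minus low IMF (n = 12 each), for 33 of the 34 tested carriers, with 95% intervals for the deposited scaling (black) and values after TMM scaling (open diamonds). The intervals of SLC25A46 and SLC25A3 lie above 0 before adjustment, and the TMM values lie to the left of the deposited ones for every gene drawn.

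The ADP/ATP carriers exchange matrix ATP for cytosolic ADP, and SLC25A4, also called ANT1, is the form of heart and skeletal muscle. SLC25A4 lies on chromosome 15 at 46193493 to 46200987. It ranged from 286.7 through a median of 474 to 673 FPKM in high IMF and from 164 through 447 to 535 FPKM in low IMF. The 2 lowest animals of all, low IMF animals 5 and 10, had 164 and 178 FPKM, and the rest of the groups overlapped. The means were 454 ± 124 and 399.96 ± 118 FPKM (SD, n = 12 each), with a log2 fold change of 0.21 (SE 0.190, limma adjusted p = 0.807).

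SLC25A6, the form known as ANT3, was the third carrier by level, on a scaffold outside the numbered chromosomes. ADP/ATP carriers are alike in sequence, and how reads that match more than 1 of them were divided is not stated, so their separate levels are less certain. It ranged from 75.2 through 132 to 188 FPKM in high IMF and from 79.7 through 140 to 192 FPKM in low IMF. The ranges were nearly the same (log2 fold change -0.030, SE 0.136, limma adjusted p = 0.973). SLC25A5, or ANT2, the form of dividing cells, lies on the X chromosome and stood far below both. Its range was 3.005 through 3.82 to 5.86 FPKM in high IMF and 2.57 through 3.30 to 7.82 FPKM in low IMF. The highest value belonged to low IMF animal 10, the next highest to a high IMF animal, and the log2 fold change was 0.17 (SE 0.125, limma adjusted p = 0.752).

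The muscle form outweighed the proliferative one by a wide margin in every animal. SLC25A4 was 117 times SLC25A5 in the median animal, from 22.7 to 205 times. The plain ratio of FPKM within an animal does not depend on library scaling. The log2 ratios of pairs tested here and below add 1 to each FPKM. They therefore depend on scaling in part, most for low members. As log2((FPKM + 1) ratio), SLC25A4 over SLC25A5 was 6.43 ± 0.477 in high IMF animals and 6.39 ± 0.800 in low IMF animals (SD over 12 each, two-sided permutation p = 0.887). SLC25A5 over SLC25A6 was -4.69 ± 0.411 and -4.89 ± 0.452 (permutation p = 0.266). Neither ratio differed beyond the spread between animals.

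SLC25A3, the phosphate carrier, brings inorganic phosphate into the matrix with a proton, and ATP synthase uses it. It lies on chromosome 5 at 85284316 to 85292451. Its values ran from 319 through a median of 423 to 467 FPKM in high IMF and from 305 through 341 to 427 FPKM in low IMF. Of the high IMF animals, 9 of 12 lay above the low IMF median, and 6 exceeded the highest low IMF animal. It was the steadiest carrier, with a coefficient of variation of 14.0% over the 24 animals. The means were 409 ± 56.5 and 360 ± 39.7 FPKM, a log2 fold change of 0.18 (SE 0.0832, unadjusted p = 0.0429, limma adjusted p = 0.642). With TMM scaling it was 0.065 (unadjusted p = 0.441), which does not pass even without adjustment. The first 4 digits of the identifiers divide the animals into 2 sets, the first with the smaller digits, each with 6 high and 6 low IMF animals. Within the sets the log2 fold change was 0.21 (unadjusted p = 0.120) and 0.15 (unadjusted p = 0.294) in the limma fit. No source used here says what the digits stand for.

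The ATP-Mg/phosphate carriers set the size of the adenine nucleotide pool in the matrix and respond to calcium. SLC25A25 was the most abundant of them and among the most variable carriers of high level. It ranged from 5.67 through 15.6 to 42.7 FPKM in high IMF and from 8.45 through 13.6 to 30.3 FPKM in low IMF. The highest animal, high IMF animal 1, and the lowest, high IMF animal 8, were of the same group. The log2 fold change was 0.13 (SE 0.254, limma adjusted p = 0.930). SLC25A24 (mean 3.03 FPKM, log2 fold change -0.040) and SLC25A23 (mean 2.41 FPKM, log2 fold change -0.11, from 0.349 to 4.33 FPKM over all animals) were lower in level. SLC25A23 over SLC25A25, as a log2 ratio, was -2.51 ± 0.817 in high IMF animals and -2.27 ± 0.561 in low IMF animals (SD over 12 each, permutation p = 0.413).

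UCP2 and UCP3, neighbours on chromosome 9, belong to the branch of the family named for proton leak. UCP3 is known as the form of skeletal muscle and brown fat and UCP2 as that of immune and many other cells. UCP3 split the animals in a way that did not follow fat class. In 7 animals, 4 of high and 3 of low IMF, it was from 2.86 to 8.29 FPKM, and in the other 17 from 0.148 to 1.43 FPKM. The 7 were high IMF animals 3, 4, 8 and 10 and low IMF animals 2, 3 and 4. Its coefficient of variation, 134.6%, was the largest of all 35 members. The log2 fold change was 0.31 with an interval from -0.56 to 1.18 (limma adjusted p = 0.880). It was 0.92 within the first set of animals and -0.29 within the second, and the difference between these was not tested. The single listed transcript, at 8379085 to 8386377, has 5 exons.

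UCP2 varied much less. It ranged from 1.79 through a median of 2.93 to 3.75 FPKM in high IMF and from 1.07 through 1.99 to 4.61 FPKM in low IMF. Of the high IMF animals 11 of 12 lay above the low IMF median, but the highest value of all was that of low IMF animal 10. The means were 2.87 ± 0.570 and 2.32 ± 1.02 FPKM, a log2 fold change of 0.27 (SE 0.136, unadjusted p = 0.0603, limma adjusted p = 0.659). Its only listed transcript is an assembled isoform. UCP3 exceeded UCP2 in 6 of 24 animals, and their log2 ratio was -0.62 ± 1.12 in high IMF animals and -0.66 ± 1.17 in low IMF animals (SD over 12 each, permutation p = 0.917). SLC25A27, the brain-associated relative UCP4, had a mean of 0.585 FPKM and a log2 fold change of 0.22 (unadjusted p = 0.0521, limma adjusted p = 0.651).

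The carriers of the malate-aspartate shuttle move the reducing power of cytosolic NADH into the matrix. SLC25A11, the oxoglutarate/malate carrier, was the fourth carrier by level. It ranged from 33.0 through 52.2 to 67.9 FPKM in high IMF and from 46.04 through 49.01 to 58.3 FPKM in low IMF. The low IMF animals all lay inside the range of the high IMF animals, and the log2 fold change was 0.026 (SE 0.0952, limma adjusted p = 0.968). It was -0.085 with TMM scaling.

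SLC25A12, or aralar, is the aspartate/glutamate carrier of muscle and brain, and SLC25A13, or citrin, is that of liver. SLC25A12 ranged from 10.2 through 21.9 to 31.8 FPKM in high and from 11.08 through 20.5 to 28.5 FPKM in low IMF (log2 fold change 0.16, SE 0.173, limma adjusted p = 0.834). SLC25A13 ranged from 0.611 through 1.08 to 1.94 FPKM and from 0.507 through 0.976 to 1.25 FPKM (0.18, SE 0.102, limma adjusted p = 0.695). SLC25A12 exceeded SLC25A13 in all 24 animals, by 18.5 times in the median animal. The log2 ratio of (FPKM + 1), 3.37 ± 0.513 against 3.39 ± 0.406 (SD, n = 12 each, permutation p = 0.927), differed by less than the spread between animals.

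SLC25A1, the citrate carrier, exports the carbon from which fatty acids are made, and was one of the few members with a lower mean in high IMF muscle. It ranged from 0.576 through 1.995 to 4.30 FPKM in high IMF and from 1.02 through 2.57 to 4.82 FPKM in low IMF. The log2 fold change was -0.29 (SE 0.202, limma adjusted p = 0.738). It was 0.048 in the first set of animals and -0.62 in the second (unadjusted p = 0.0421 in the limma fit of the second set). In that fit SLC25A1 was the 1 member of 34 with an unadjusted p under 0.05 (2.94%), against 3.41% of all genes. The 2 listed transcripts are assembled isoforms without a reference transcript beside them, and their span, chromosome 14 at 50974617 to 51020611, also covers the RefSeq gene LOC100155135. Its values may therefore hold reads of that gene. SLC25A22, a glutamate carrier, had a mean of 1.26 FPKM and a log2 fold change of 0.016.

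SLC25A20 brings acylcarnitines into the matrix for beta-oxidation in exchange for carnitine. It lies on chromosome 13 at 31523823 to 31553286. It ranged from 9.56 through 15.5 to 23.5 FPKM in high and from 9.15 through 11.8 to 18.7 FPKM in low IMF. Of the high IMF animals 9 of 12 lay above the low IMF median, and the highest was high IMF animal 10. The log2 fold change was 0.21 (SE 0.139, limma adjusted p = 0.732).

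Carriers of amino acids were lower in level. SLC25A44, which takes branched-chain amino acids into mitochondria, varied widely between animals, and its groups overlapped over most of their range. It ranged from 0.0927 through 1.17 to 5.95 FPKM in high IMF and from 0.0986 through 1.303 to 4.02 FPKM in low IMF. The coefficient of variation was 96.2%, and the log2 fold change 0.21 with an interval from -0.53 to 0.95. SLC25A45 had means of 2.93 ± 0.792 and 2.33 ± 0.930 FPKM, with 10 of 12 high IMF animals above the low IMF median (log2 fold change 0.27, unadjusted p = 0.0732, limma adjusted p = 0.670). SLC25A29, a carrier of basic amino acids, and SLC25A38, the glycine carrier of haem synthesis, had log2 fold changes of 0.16 and 0.067. SLC25A47, a liver carrier in other species, had a mean of 0.512 FPKM.

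Of the iron and cofactor carriers, 10 were tested and 8 had a positive log2 fold change, 6 with TMM scaling. The shares of all genes were 73.4% and 49.9%. SLC25A39, which brings glutathione into the matrix, was the most abundant. It ranged from 24.7 through 39.4 to 61.4 FPKM in high and from 19.4 through 32.5 to 59.5 FPKM in low IMF, with 10 of 12 high IMF animals above the low IMF median (log2 fold change 0.24, SE 0.158, limma adjusted p = 0.727). Its relative SLC25A40 stood at 2.52 FPKM and differed little (0.021, SE 0.0930). The log2 ratio of the pair was 3.49 ± 0.397 in high IMF animals and 3.27 ± 0.447 in low IMF animals (SD over 12 each, permutation p = 0.212).

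The mitoferrin SLC25A28, an iron importer, ranged from 6.06 through 9.73 to 12.7 FPKM in high and from 5.43 through 8.45 to 13.8 FPKM in low IMF (log2 fold change 0.061, -0.042 with TMM scaling). SLC25A26, the carrier of S-adenosylmethionine, had means of 9.07 ± 1.47 and 7.94 ± 1.40 FPKM (0.17, limma adjusted p = 0.695). The pyrimidine nucleotide carrier SLC25A36 had means of 4.04 ± 0.978 and 3.597 ± 0.968 FPKM (0.13, limma adjusted p = 0.823). Its relative SLC25A33 was below 1 FPKM except in high IMF animal 2, at 2.42 FPKM. The log2 ratio of (FPKM + 1) for SLC25A33 over SLC25A36 was -1.78 ± 0.566 and -1.77 ± 0.260 (SD, n = 12 each, permutation p = 0.988). At this level the added 1 weighs heavily. Without it, the median ratio over all animals was 0.0742, and the log2 ratio differed by 0.26, high minus low IMF. The log2 fold change was 0.14 for the folate carrier SLC25A32, 0.13 for the peroxisomal SLC25A17, -0.070 for SLC25A16 and -0.12 for SLC25A52.

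**Figure D3:**
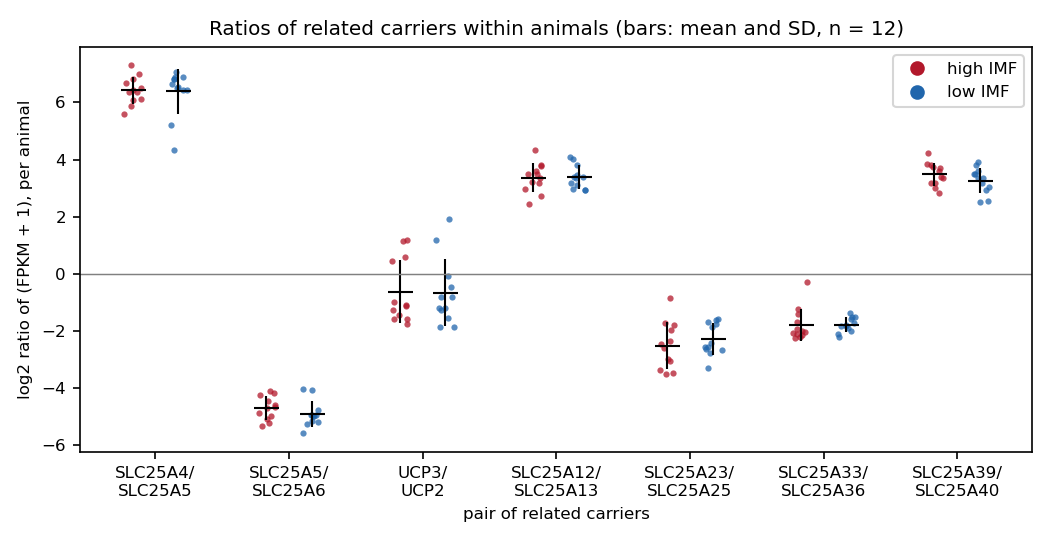
Log2 ratio of (FPKM + 1) within each animal for 7 pairs of related carriers, high IMF in red and low IMF in blue, with the mean and SD of 12 animals per group. In every pair the groups overlap, and the ratio of UCP3 to UCP2 is the most widely spread.

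All 7 ratios had a Benjamini-Hochberg adjusted p of at least 0.930 over the 7 pairs. Within the 2 sets of 6 against 6 animals, the smallest of the 14 exact permutation p-values was 0.115, for SLC25A23 over SLC25A25 in the second set, where the difference was -0.59. The balance between related carriers thus did not differ detectably by fat class. An eighth pair planned, SLC25A37 over SLC25A28, could not be formed.

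SLC25A46 had the smallest p of the family. It is an outer membrane protein of the family that acts in mitochondrial fission and lipid exchange. It lies on chromosome 2 at 115529496 to 115555452 and has 1 listed transcript, of 8 exons. It ranged from 5.71 through a median of 8.16 to 13.2 FPKM in high IMF and from 3.27 through 6.42 to 10.9 FPKM in low IMF. Of the high IMF animals 11 of 12 lay above the low IMF median, while low IMF animal 10 exceeded 10 of the 12 high IMF animals. The means were 8.53 ± 2.07 and 6.63 ± 1.89 FPKM, a log2 fold change of 0.33 (SE 0.135, unadjusted p = 0.0201, limma adjusted p = 0.560). With TMM scaling it was 0.24 (unadjusted p = 0.0174, limma adjusted p = 0.782). It was 0.48 within the first set of animals (unadjusted p = 0.0135) and 0.19 within the second (unadjusted p = 0.389) in the limma fit.

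SLC25A34, an orphan carrier, was the third most variable member with a mean of at least 1 FPKM. It ranged from 2.96 through 7.85 to 25.6 FPKM in high and from 2.19 through 8.71 to 15.7 FPKM in low IMF. High IMF animals 7, 8 and 10 stood highest, and the median was lower in high IMF although the mean was higher (log2 fold change 0.19, SE 0.282, limma adjusted p = 0.895). It was 0.62 within the first set of animals and -0.25 within the second. SLC25A43, on the X chromosome, had a log2 fold change of 0.088, or -0.0037 with TMM scaling.

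Beneath the summed levels, the shares assigned to isoforms differed widely between animals in some members. Of the 35 members, 17 had more than 1 listed transcript. All 35 together had 43 reference transcripts, 21 assembled isoforms and 5 transcripts that the table classes as new, of which 3 are SLC25A52 and 2 lie on the strand opposite SLC25A4. In SLC25A4 and SLC25A3 the leading transcript was the largest in all 24 animals, with 75.7% and 80.5% of the gene's FPKM on average. For SLC25A3 this was an assembled isoform of 8 exons, at 332 ± 53.9 against 288 ± 38.4 FPKM. The 2 transcripts opposite SLC25A4 are part of its sum, with means of 2.63 and 1.91 FPKM, under 1% of the gene each. No strand-marking step is stated, so reads of the 2 strands may not have been told apart.

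In SLC25A12 the animals fell to one or the other of its reference transcripts. The transcript of 19 exons held over 80% of the gene's FPKM in 13 animals (89.7% or more), under 20% in 9 (12.6% or less), and from 20% to 80% in 2. In the 9, the transcript of 18 exons held most. Both kinds occurred in both groups, with 7 high and 6 low IMF animals among the 13 and 4 and 5 among the 9. SLC25A20 showed the same spread. Its reference transcript of 9 exons held over 80% in 9 animals and under 20% in 11, and an assembled isoform of 8 exons took the rest. The cut points were chosen after the values were seen.

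**Figure D4:**
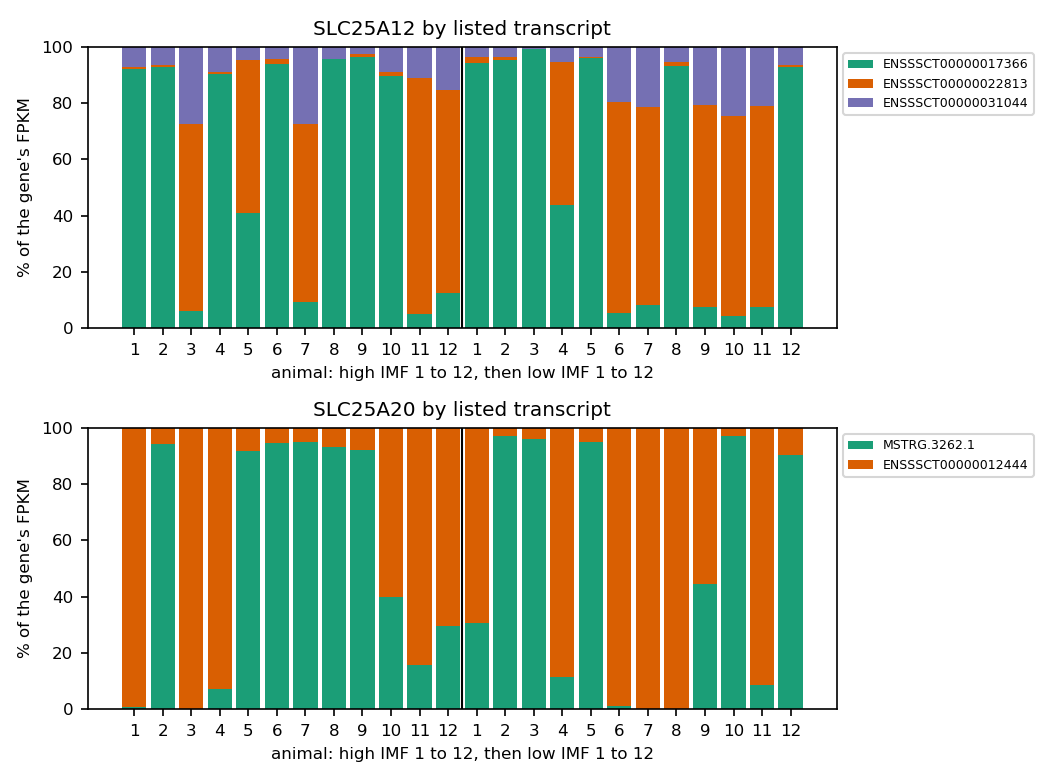
Share of the gene's FPKM, in percent, taken by each listed transcript of SLC25A12 (top) and SLC25A20 (bottom) in each animal, high IMF to the left of the black line and low IMF to the right. In SLC25A12 the 19-exon transcript (green) holds over 80% in 13 animals and under 20% in 9, and both patterns occur in both groups.

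No share differed by fat class past the adjusted threshold. Over the 17 members, the two-sided permutation p for the share of the leading transcript was smallest for SLC25A39, at 48.6% ± 8.58 in high and 55.2% ± 7.45 in low IMF animals (SD over 12 each, permutation p = 0.0585, adjusted over the 17 members 0.536). This test was added after the data were seen. Reads shared between isoforms were divided by the authors' assembly, so a share of 1 isoform is less certain than the sum, and the part of that division in these splits was not tested.

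In the authors' deposited table, 4 of the 69 transcripts had a p-value under 0.05 (5.80%, against 6.39% of all transcripts). They were an assembled isoform of SLC25A39 (fold low over high 0.62, p = 0.011), SLC25A46 (0.887, p = 0.0254), an assembled transcript of SLC25A52 (1.446, p = 0.0375) and SLC25A13 (0.88, p = 0.0483). The lowest q-value that the authors' deposited table gives for any carrier transcript was 0.344, for SLC25A39.

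Some carriers varied together across animals within the groups. Over 30 members with a mean of at least 1 FPKM, log2(FPKM + 1) was centred within each group and correlated for 435 pairs, with a permutation of animals within groups (100000 resamples). This family of relations was added after the data were seen. At an adjusted p under 0.05 over the 435 pairs, 5 pairs passed, all positive and all passing with Spearman's rho too. The points share library depth and scaling: the median r over all pairs was 0.13 as deposited and 0.0097 with TMM scaling.

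SLC25A12 varied with SLC25A46 (r = 0.73, permutation p = 4e-05, adjusted 0.0174; rho = 0.72, permutation p = 0.0001, adjusted 0.0261). Without the 2 animals farthest from the median of SLC25A12 r was 0.62, within the 2 sets of animals it was 0.81 and 0.72, and with TMM scaling 0.61. SLC25A3 varied with SLC25A20 (r = 0.74, permutation p = 0.00011, adjusted 0.0239; rho = 0.69, permutation p = 0.00038, adjusted 0.0331). Without the 2 farthest animals r was 0.66, within the sets 0.72 and 0.76, and with TMM scaling 0.57. Thus the phosphate carrier and the acylcarnitine carrier were high in the same animals.

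SLC25A12 also varied with SLC25A23 (r = 0.71, permutation p = 0.00024, adjusted 0.0348; rho = 0.73, permutation p = 0.00014, adjusted 0.0261), though r was 0.41 within the first set and 0.91 within the second. It was 0.59 without the 2 farthest animals and 0.64 with TMM scaling. SLC25A26 varied with SLC25A43 (r = 0.68, permutation p = 0.00042, adjusted 0.0457; rho = 0.70, permutation p = 0.00036, adjusted 0.0331), with r of 0.80 without the 2 farthest animals, 0.73 and 0.63 within the sets and 0.56 with TMM scaling. SLC25A20 varied with SLC25A44 (r = 0.68, permutation p = 0.00056, adjusted 0.0487; rho = 0.71, permutation p = 0.00018, adjusted 0.0261), with r of 0.61, 0.70 and 0.64, and 0.65 in the same order.

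**Figure D5:**
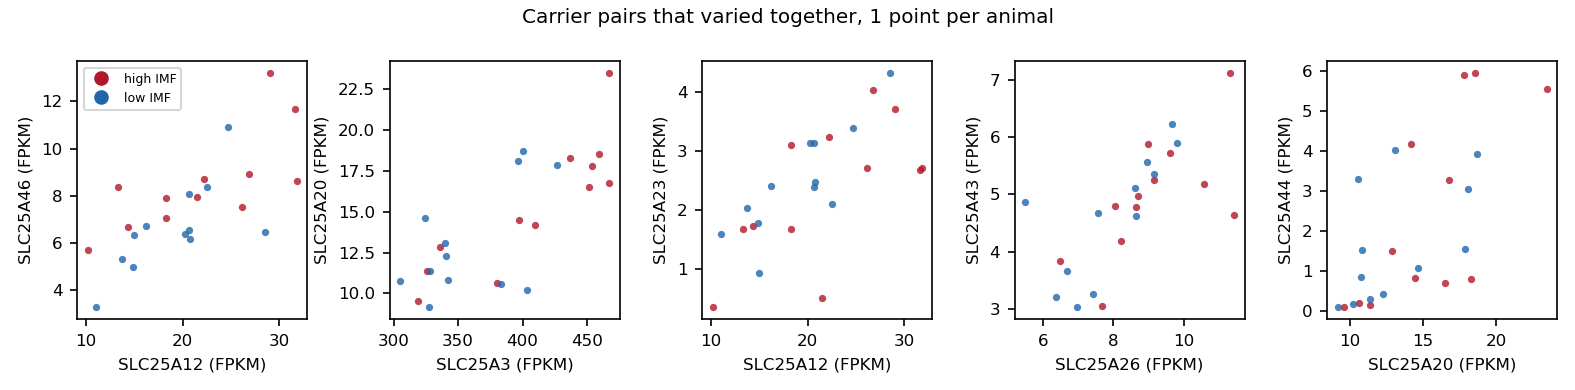
FPKM of the 5 carrier pairs whose levels were correlated across animals past the adjusted threshold, 1 point per animal, high IMF in red and low IMF in blue. In each panel animals of both groups lie along the same upward trend.

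The genes whose pattern was most like a carrier's were found among 7956 genes with a symbol and a mean of at least 1 FPKM. Each is the highest of 7956 values, so the correlations are descriptions over the 24 animals, without a p. Over the 30 carriers the highest r ran from 0.66 to 0.91, and the 8 carriers at the top, chosen after the values were seen, are named here. SLC25A12 was closest to NDUFS1, the largest subunit of respiratory complex I (r = 0.91, rho = 0.93, and 0.87 with TMM scaling). SLC25A46 was closest to TRMT1L (r = 0.91, rho = 0.84, 0.76 with TMM scaling) and SLC25A43 to NCK2, an adaptor protein of signalling (r = 0.90, rho = 0.86, 0.85 with TMM scaling). SLC25A20 was closest to ACADVL, the very long-chain acyl-CoA dehydrogenase that starts beta-oxidation (r = 0.90, rho = 0.91, 0.86 with TMM scaling). SLC25A39 was closest to ATG4B, a protease of autophagy (r = 0.89, rho = 0.89, 0.86 with TMM scaling), and SLC25A32 to PPWD1 (r = 0.87, rho = 0.80, 0.74 with TMM scaling). SLC25A5 was closest to MANF, a secreted protein of the endoplasmic reticulum stress response (r = 0.85, rho = 0.86, 0.83 with TMM scaling), and SLC25A34 to PLIN2, a lipid droplet coat protein (r = 0.84, rho = 0.79, 0.82 with TMM scaling).

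The enzymes and proteins that work with the carriers were taken from 6 lists. None of their 46 tested genes passed the adjusted threshold, against 0.051% of all genes. CKMT2, the mitochondrial creatine kinase that receives ATP from SLC25A4, had the smallest p among the users of carrier substrates. It was 144 ± 38.1 in high and 98.2 ± 24.2 FPKM in low IMF, with 11 of 12 high IMF animals above the low IMF median (log2 fold change 0.54, SE 0.149, unadjusted p = 0.00121, limma adjusted p = 0.241). Pyruvate carboxylase PC (0.46) and malic enzyme ME1 (0.38), which work on the substrates of the dicarboxylate and citrate carriers, followed with adjusted p of 0.451 and 0.518 in limma. Of the 12 tested genes of this list 10 were positive (9 with TMM scaling), against 73.4% of all genes (49.9% with TMM scaling). Of the 12, 5 had an unadjusted p under 0.05, all higher, against 6.79% of all genes. With TMM scaling 4 did, against 2.82%. ALAS2, the haem synthesis enzyme of red cells, is among the 5 and the 4, and is also on the list of blood cell markers. Its means were 0.769 FPKM in high and 0.355 FPKM in low IMF. It thus reached the filter of 0.5 FPKM only through the high IMF animals.

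Of 12 tested genes of the machinery that imports carrier proteins, 11 were positive (9 with TMM scaling), against 73.4% of all genes (49.9% with TMM scaling). At an unadjusted p under 0.05, 4 were higher and 0 lower, against 6.79% and 0.893% of all genes. With TMM scaling 2 were higher, TIMM10 and TIMM8A, against 2.82%. The 4 were TOMM7 (log2 fold change 0.24), TIMM10 (0.35), TIMM8A (0.32) and TIMM8B. TIMM10, a chaperone of carrier precursors, was 26.8 ± 5.09 against 21.1 ± 5.69 FPKM (limma adjusted p = 0.521). All 4 enzymes of the malate-aspartate shuttle were positive, led by MDH2 (0.19, limma adjusted p = 0.665), 3 of them with TMM scaling. Of 4 genes of the carnitine shuttle 2 were positive, with CPT2 at 0.46 (unadjusted p = 0.0375, limma adjusted p = 0.627) and CPT1B at -0.079. All 6 other membrane transporters were positive, 3 with TMM scaling, with VDAC2 at 0.19 and the calcium uniporter MCU at 0.29. Of 8 regulators of mitochondrial genes 7 were positive, 6 with TMM scaling, with ESRRA at 0.50 (unadjusted p = 0.0453, limma adjusted p = 0.642) and PPARD at 0.20. For each of these lists the background of positive genes is 73.4% of all genes as deposited and 49.9% with TMM scaling.

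Markers of other cell types were read in the same animals. The summed level of 6 adipocyte markers was 63.8 to 204 FPKM in high and 31.1 to 147 FPKM in low IMF. Of the 6, 5 were higher at an unadjusted p under 0.05, against 6.79% of all genes. The sixth, PLIN1, had a log2 fold change of -0.088. LEP passed the adjusted threshold of limma, against 0.051% of all genes. With TMM scaling LEP and ADIPOQ did, against 0.0512%. LEP was low in level, with means of 0.888 FPKM in high and 0.175 FPKM in low IMF. It thus reached the filter of 0.5 FPKM only through the high IMF animals. The 3 measured blood cell genes of 4 summed to 13.1 to 174 and 9.85 to 83.7 FPKM, with HBA not matched. The sums were 23.3 to 56.2 and 15.3 to 50.6 FPKM for 4 endothelial genes and 2.85 to 8.13 and 0.938 to 11.6 FPKM for 3 of 4 macrophage genes, CD68 not being matched. At an unadjusted p under 0.05, 1 of the 3 blood, 1 of the 4 endothelial and 0 of the 3 macrophage genes were higher. The blood gene was ALAS2, also counted above among the users of carrier substrates. In these 3 lists 0 were lower. The background was 6.79% of all genes higher and 0.893% lower. Genes of slow fibres summed to 2387 to 6266 and 1292 to 7188 FPKM, those of fast fibres to 7345 to 18454 and 9040.1 to 17989 FPKM, and those of skeletal muscle in general to 11743 to 40321 and 16927 to 47326 FPKM. At an unadjusted p under 0.05, 1 of 6 fast fibre genes, MYLPF (log2 fold change -0.46), was lower in high IMF. So was 1 of 5 skeletal muscle genes, TTN (-0.96), and both were also lower at that threshold with TMM scaling. In these 2 lists 0 were higher, and 0 of 6 slow fibre genes were called. The share of all genes lower at that threshold was 0.893% as deposited and 2.28% with TMM scaling. No summed marker group was free of overlap, and the part of cell types in the carrier values was not tested.

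Low IMF animal 10 stood apart in several members. It was the highest of all 24 animals in SLC25A5, UCP2, SLC25A52, SLC25A32 and SLC25A16, the second lowest in SLC25A4, and its 10 most abundant genes took 18.5% of FPKM, the lowest share of all. Without it, 9 of the 33 members then tested had an unadjusted p under 0.05, all higher in high IMF, in place of 2. The share of all genes that did so also went up, from 6.79% to 14.1%. Among them were SLC25A46, UCP2, SLC25A5, SLC25A3 and SLC25A32. None of the 9 passed the adjusted threshold of limma. High IMF animal 7 had the next lowest such share of its 10 most abundant genes, 20.2%. Without it alone, 1 member had an unadjusted p under 0.05, against 6.25% of all genes. Without both animals 4 of 33 did (12.1%), against 12.3% of all genes. The summed FPKM of the family was 977 through 1220.4 to 1515 in high IMF and 854 through 1122 to 1221 in low IMF, in libraries whose FPKM over all transcripts summed to 351119 to 415572.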

How the data were processed

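PolyA RNA of longissimus dorsi was taken 25 minutes after death and read as 150-base pairs, per the labels' protocols. The deposited table holds 1 FPKM value per assembled transcript and animal. No header names the unit, which was read from how the values behave. HISAT2 2.0.5, StringTie 1.3.3 and the build Sscrofa11.1 are listed in the submitters' processing notes, with no role or order, and no annotation release is stated. Per the file headers, the authors also give a fold change (a ratio, low over high), its p-value and q-values of 3 kinds. The table states no read depth, so counting error in low members is not separated from differences between animals.

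FPKM was summed per symbol and chromosome. Differences, taken as high minus low IMF, came from limma 3.58.1 (R 4.3.3) applied to log2(FPKM + 1) with its trend and robust options. A pseudocount of 1 understates the change of low genes. The limma fit was tested on simulated data with known fold changes. Ratios and shares used permutation tests (100000 resamples, or exact with 6 per group) in Python 3.11.15 with scipy 1.17.1. TMM factors were computed on FPKM without precision weights. The counts and medians cover all members, but the values of 1 member are not reported here and it is not drawn.

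Described in full are carriers with an unadjusted p under 0.05, the 6 of highest mean, the paralogous pairs and the 3 most variable, and up to 3 genes by smallest p of each of 6 pathway lists. SLC25A1, SLC25A20, SLC25A26 and SLC25A45 were added after their values were seen. The members and lists were chosen with earlier results of these data known. The p-values measure the spread between these 24 animals, some of which share the first 9 digits of their identifiers.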

Additional observations from a re-analysis of the deposited data

How the results depend on the processing

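No carrier passed the adjusted threshold of limma in the deposited fit or in any alternative, leaving out each animal included. The number with an unadjusted p under 0.05, 2 in the deposited fit, is given beside the share of all genes in the same fit. It was 1 with TMM scaling (5.11%), 1 with upper-quartile scaling (5.04%), 6 with array weights (12.4%), 4 with the level of a Y-linked gene as a term (6.52%), 4 without high IMF animal 7 and low IMF animal 10 together (12.3%), and 1 in the second set of animals alone (3.41%). With 1 animal left out it was 1 to 9. The 9 came without low IMF animal 10 (15%), and 4 without high IMF animal 2 (7.55%), 6 (7.68%) or 9 (8.59%) or low IMF animal 7 (8.60%). Positive members were 11 of 12 at a filter of 5 FPKM, which tests fewer genes, against 78.5% of all genes. They were 25 to 29 with 1 animal left out, against 69.1% to 78.2% of all genes. The family median was 0.12 to 0.18 with 1 animal left out.

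Of 675 values of the 18 tested carriers described in full by the rule, each under 1 alternative, 651 kept their sign. SLC25A1, SLC25A20, SLC25A26 and SLC25A45, added after their values were seen, are not among the 18. SLC25A1 turned in the first set of animals alone (0.048). The signs of the 18 that turned, none of them called, were as follows. With TMM scaling they were SLC25A11 (-0.085), SLC25A28 (-0.042) and SLC25A40 (-0.054), and with upper-quartile scaling SLC25A11 (-0.092), SLC25A28 (-0.049) and SLC25A40 (-0.061). In the first set of animals alone they were SLC25A4 (-0.047), SLC25A11 (-0.013), SLC25A25 (-0.055), SLC25A28 (-0.071) and SLC25A23 (0.066), and in the second SLC25A34 (-0.25) and UCP3 (-0.29). SLC25A6 turned with 1 animal per 9 identifier digits (0.0014), SLC25A11 with the Y-linked level (-0.00038) and SLC25A40 with reference transcripts alone (-0.22).

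Ratio differences near 0 also turned. SLC25A4 over SLC25A5 was -0.0011 with a pseudocount of 0.1, -0.00713 with none and -0.20 without that pair of animals. SLC25A33 over SLC25A36 was 0.16 and 0.26 with those pseudocounts, 0.078 with 1 animal per 9 digits, 0.020 without that pair and 0.022 with reference transcripts alone. UCP3 over UCP2 was -0.26 with 1 animal per 9 digits and -0.033 without that pair, and SLC25A12 over SLC25A13 was 0.047 without that pair. With 1 animal left out, SLC25A6 ran from -0.097 to 0.042, SLC25A11 from -0.0096 to 0.083 and SLC25A40 from -0.019 to 0.057. The ratio differences ran from -0.15 to 0.12 for SLC25A4 over SLC25A5, from -0.12 to 0.28 for UCP3 over UCP2, from -0.11 to 0.066 for SLC25A12 over SLC25A13 and from -0.14 to 0.037 for SLC25A33 over SLC25A36. The cause of these changes was not tested. No paired analysis was possible because the labels give no replicate numbers that the groups share.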
